A study of Mus musculus with 12 samples.

Results

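The mRNAs described here are 10 of the transcripts made from the mitochondrial DNA itself: mt-Nd1, mt-Nd2, mt-Nd4, mt-Nd5, mt-Nd6, mt-Cytb, mt-Co1, mt-Co2, mt-Co3 and mt-Atp6. They were chosen by gene symbol and found in the table of amygdala counts by Ensembl identifier, and all 10 had a row among the 47729 genes of that table, as did 37 mitochondrially encoded genes in all (13 protein genes, 2 rRNA genes and 22 tRNA genes). Each of the 12 libraries held the amygdalae of both sides from 1 age-matched female mouse of the inbred strain C57/BL6, and no mouse carried an engineered allele or had been given a drug. Before rapid decapitation each mouse had been through 3 behavior tests: a raised maze with open and closed arms (EPM), a box with a light and a dark side, and a meeting with an unfamiliar mouse. By the labels, 3 mice were less anxious (mice 3, 7 and 12), 4 anxious (mice 1, 4, 8 and 11) and 4 more anxious (mice 2, 6, 9 and 10), and mouse 5 had no group. Mouse 5 was left out of the study's own group analysis as an outlier in its PCA. In the table of counts it had 23768 genes with at least 1 read, where the other libraries had between 26378 and 28196, and the main values described over 12 libraries are also given without it, a choice made after seeing the data. The study drew these groups from the second principal component of the same expression data, so a test between them is not independent of the way they were made. Each group rests on mice of 1 strain and sex, and the test statistics measure the spread between mice with 1 library each. In tissue of this kind, fewer cells of a type and less RNA per cell cannot be told apart.

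Mitochondria keep a small circular genome in many copies per cell. It is read from both strands as long precursors, from which tRNAs are cut out, and this frees the mRNAs and rRNAs that lie between them. Its mRNAs code for core subunits of the respiratory chain, which are built into complexes together with many subunits encoded in the nucleus, and neurons depend on this chain for most of their ATP. mt-Nd1, mt-Nd2, mt-Nd4, mt-Nd5 and mt-Nd6 code for membrane subunits of complex I (NADH dehydrogenase), mt-Cytb for cytochrome b of complex III, mt-Co1, mt-Co2 and mt-Co3 for the core of complex IV (cytochrome c oxidase), and mt-Atp6 for a subunit of the proton channel of complex V (ATP synthase). Parts of the mitochondrial genome have also been copied into nuclear chromosomes in the course of evolution, where they stand as pseudogenes.

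In the GENCODE M21 annotation of GRCm38 (the assembly also called mm10), 9 of the 10 genes lie on the plus strand of chrM in the order mt-Nd1 (ENSMUSG00000064341, chrM:2751-3707), mt-Nd2 (ENSMUSG00000064345, chrM:3914-4951), mt-Co1 (ENSMUSG00000064351, chrM:5328-6872), mt-Co2 (ENSMUSG00000064354, chrM:7013-7696), mt-Atp6 (ENSMUSG00000064357, chrM:7927-8607), mt-Co3 (ENSMUSG00000064358, chrM:8607-9390), mt-Nd4 (ENSMUSG00000064363, chrM:10167-11544), mt-Nd5 (ENSMUSG00000064367, chrM:11742-13565) and mt-Cytb (ENSMUSG00000064370, chrM:14145-15288). mt-Nd6 (ENSMUSG00000064368, chrM:13552-14070) is the only member on the minus strand. The genes hold no introns. The last 14 bases of mt-Nd6 lie opposite those of mt-Nd5, at chrM:13552-13565. The ends of both transcripts are shown to make this overlap visible, 5′ to 3′ on the strand of each gene, with the shared bases in capitals.
mt-Nd5 end: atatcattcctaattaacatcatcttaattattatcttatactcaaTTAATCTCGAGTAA
mt-Nd6 end: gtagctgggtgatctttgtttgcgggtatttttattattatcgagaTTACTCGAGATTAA

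Nuclear copies decide what a count of several of these genes means. On the minus strand of chromosome 1, between chr1:24611535 and chr1:24616197, the annotation places 7 unprocessed pseudogenes that repeat a stretch of the mitochondrial genome. Gm10925 (chr1:24613974-24614651) is identical to mt-Atp6 over all of its 678 bases, Gm28661 (chr1:24614885-24615565) to mt-Co2 over 681 bases, Gm28437 (chr1:24613189-24613971) to mt-Co3 over 783 bases and Gm28439 (chr1:24611535-24612410) to the leading 876 of the 1378 bases of mt-Nd4. The ends of mt-Atp6 and mt-Co2 are shown beside those of their copies because they are almost the only place where a read can differ. Capitals mark the bases of the mitochondrial gene beyond the end of the copy.
mt-Atp6: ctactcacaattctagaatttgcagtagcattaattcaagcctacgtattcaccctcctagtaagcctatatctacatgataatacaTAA
Gm10925: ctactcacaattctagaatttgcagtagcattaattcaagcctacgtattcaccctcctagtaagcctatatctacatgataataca
mt-Co2: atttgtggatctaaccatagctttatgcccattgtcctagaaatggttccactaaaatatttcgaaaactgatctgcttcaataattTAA
Gm28661: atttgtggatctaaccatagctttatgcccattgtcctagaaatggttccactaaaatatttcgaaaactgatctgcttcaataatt

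Gm29216 (chr1:24615706-24616197) copies bases 1054 to 1545 of mt-Co1 and differs from it at 6 of these 492 bases. With positions counted from the 5′ end of mt-Co1 and the base of mt-Co1 given before that of the copy, the differences are T1056A, C1057T, A1059G, A1060G, C1062A and A1066T. They all lie near the start of the copy, as the following stretch shows with the differing bases in capitals.
mt-Co1: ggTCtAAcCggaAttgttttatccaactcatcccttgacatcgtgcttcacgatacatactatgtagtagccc
Gm29216: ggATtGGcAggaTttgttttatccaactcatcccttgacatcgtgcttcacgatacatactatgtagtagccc

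The reads were 75 bases long, so each transcript was cut into all of its stretches of 75 bases and these were looked for in every other transcript of the annotation. In mt-Co3, 709 of 710 stretches (99.9%) were also found in another gene, in mt-Co2 607 of 610 (99.5%) and in mt-Atp6 604 of 607 (99.5%). The share was 61.5% in mt-Nd4 (802 of 1304), 39.8% in mt-Co1 (586 of 1471), 5.71% in mt-Nd2 (55 of 964) and 1.66% in mt-Nd5 (29 of 1750). mt-Nd1, mt-Nd6 and mt-Cytb shared none. A read from a shared stretch fits both genes equally well, and the counting program has to divide such reads between them. Values of members are therefore given as deposited and, where a copy is at least 97% identical, also for the gene and its copy summed. The sum was chosen after the counts of the copies had been seen.

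The libraries held between 31745630 (mouse 11) and 45142355 (mouse 2) estimated counts. The 10 members received between 9.56% and 14.1% of them, so that each member rested on between 46096 (mt-Nd6 in mouse 11) and 1324702 counts (mt-Co1 in mouse 2). No sequencing batch is named apart from a single run. Neuronal and glial markers were found in all 12 libraries, and none of the marker genes examined was at 0 in every library.

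The summed share of the 10 members differed by 1.48 times between the highest and the lowest library (coefficient of variation, CV, 15.9% over 12 libraries), and this difference ran across the groups. Less anxious mice had 12.3% (mouse 3), 9.81% (mouse 7) and 12.6% (mouse 12) of their counts on the members. Anxious mice had 14.1% (mouse 1), 12.5% (mouse 4), 10.2% (mouse 8) and 9.56% (mouse 11). More anxious mice had 13.8% (mouse 2), 9.79% (mouse 6), 9.56% (mouse 9) and 13.9% (mouse 10), and mouse 5 had 13.7%. Mice 6, 7, 8, 9 and 11 lay between 9.56% and 10.2% and the remaining 7 mice between 12.3% and 14.1%. Every group held mice of both ranges, and the groups overlapped over most of their range. Mouse 9 lay between these ranges, at 12.0%, once nuclear copies were added. The means were 11.6% ± 1.53 (SD, n = 3) in less anxious, 11.6% ± 2.10 (SD, n = 4) in anxious and 11.7% ± 2.40 (SD, n = 4) in more anxious mice. These means lay closer together than the SD of any group.

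**Figure D1:**
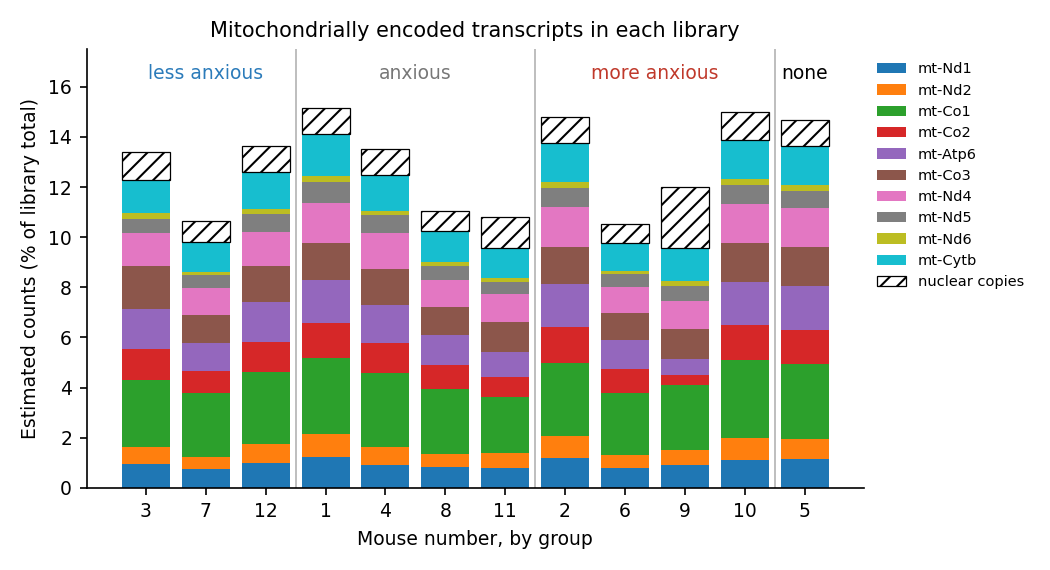
Share of each library's estimated counts on the 10 mitochondrially encoded members, stacked by gene, with their nuclear copies on top (hatched). The x axis gives the mouse number by group and the y axis percent of the library total. Members alone reached 9.56% to 14.1%, each group held both low and high libraries, and mouse 9 had the thickest layer of nuclear copies.

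The copies took a variable part of this signal. In 10 of the 12 libraries Gm28661 received at most 7.19% of the counts that it and mt-Co2 had together, and in 5 of these it received none. In mouse 9 it received 65.7% and in mouse 11 20.9%. Gm10925 received 49.7% of the counts of the mt-Atp6 pair in mouse 9, 19.8% in mouse 11 and at most 2.63% elsewhere. Gm28437 took 8.44% of the mt-Co3 pair in mouse 9 and at most 0.123% in the other libraries. Mouse 9 stood apart in all of these pairs, although the sequences of each pair are identical over the whole copy.

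As deposited, mt-Co2 made up 0.404% of the library of mouse 9, while the other more anxious mice had 1.44% (mouse 2), 0.960% (mouse 6) and 1.39% (mouse 10). Summed with Gm28661, mouse 9 reached 1.18%, between the other mice of its group. mt-Atp6 followed the same course, with 0.653% in mouse 9 as deposited and 1.30% with Gm10925, beside 1.71%, 1.15% and 1.71% as deposited in mice 2, 6 and 10. Over the 12 libraries the CV of mt-Co2 fell from 28.6% to 17.3% with the sum, and that of mt-Atp6 from 25.7% to 17.4%. The ratio of the highest to the lowest library fell from 3.58 to 1.62 for mt-Co2 and from 2.67 to 1.58 for mt-Atp6.

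Gm29216 behaved in another way. It received between 22.6% and 26.7% of the counts of the mt-Co1 pair in each of the 12 libraries, and the CV of mt-Co1 hardly moved with the sum (9.77% and 10.0%). Gm28439 held between 0 and 4.85% of the mt-Nd4 pair, with the highest value in mouse 12. Beyond the members, Gm28438, which differs from mt-Nd3 at 1 of 345 bases (T3C, counted from the 5′ end of mt-Nd3), received between 0 and 65.6% of that pair, with mouse 11 at 65.6% and mouse 9 at 54.6%. Gm10222, identical to mt-Nd4l over 294 bases, received no count in any library. With the copies of at least 97% identity summed, the 10 members made up between 10.5% (mouse 6) and 15.2% (mouse 1) of a library.

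**Figure D2:**
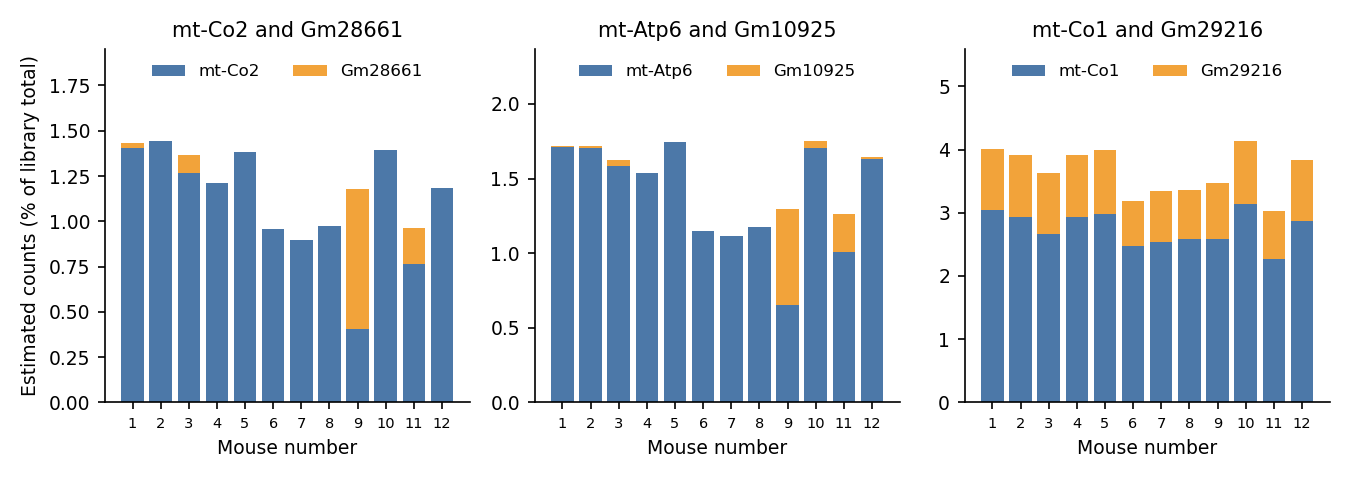
Percent of the library total (y axes, each from 0) on 3 members (blue) and on the nuclear copy of each (orange) in the 12 mice (x axes). The copy took 65.7% of the mt-Co2 pair and 49.7% of the mt-Atp6 pair in mouse 9, next came mouse 11, and the mt-Co1 pair was split alike in all libraries.

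Among the complex I subunits that are members, mt-Nd2 varied most between mice (CV 22.3%). It made up 0.650%, 0.467% and 0.745% of the libraries of less anxious mice 3, 7 and 12. Anxious mice 1, 4, 8 and 11 had 0.905%, 0.709%, 0.526% and 0.593%, and more anxious mice 2, 6, 9 and 10 had 0.882%, 0.501%, 0.604% and 0.869%. The highest mice of the anxious and more anxious groups lay above all less anxious mice, while the lowest mouse of each group lay between 0.467% and 0.526%. mt-Nd6, the subunit read from the other strand, came to 0.201%, 0.144% and 0.203% in less anxious, 0.255%, 0.186%, 0.154% and 0.145% in anxious, and 0.240%, 0.145%, 0.173% and 0.225% in more anxious mice. Its groups overlapped as well. mt-Nd1 ranged from 0.766% to 1.23% over the 12 libraries, mt-Nd4 from 1.04% to 1.60% and mt-Nd5 from 0.505% to 0.825%.

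mt-Cytb, the only mitochondrially encoded subunit of complex III, stood at 1.33%, 1.20% and 1.46% in less anxious mice 3, 7 and 12. It was at 1.69%, 1.44%, 1.22% and 1.18% in anxious mice 1, 4, 8 and 11, and at 1.55%, 1.13%, 1.32% and 1.56% in more anxious mice 2, 6, 9 and 10. The 3 groups overlapped. mt-Co1, the catalytic subunit of complex IV, had the largest share of counts of any member in every library and the smallest spread. It took 2.67%, 2.54% and 2.87% in less anxious, 3.05%, 2.93%, 2.58% and 2.26% in anxious, and 2.93%, 2.47%, 2.59% and 3.14% in more anxious mice. mt-Co3 ranged from 1.08% (mouse 6) to 1.73% (mouse 3), so that its highest value was found in a less anxious mouse.

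Levels of different genes were compared per length, as RPKM (counts scaled to the length of the transcript in kilobases and to the total of the library). The libraries were poly(A)-selected, and how fully the transcripts of each member were captured was not tested. By median over the 12 libraries, mt-Atp6 was highest with 22909, followed by mt-Co3 (18092), mt-Co1 (17925) and mt-Co2 (17475). mt-Cytb (12095), mt-Nd1 (9873), mt-Nd4 (9664) and mt-Nd2 (6546) came next, and mt-Nd6 (3728) and mt-Nd5 (3534) were lowest. By this median the complex IV and V members stood above cytochrome b and all complex I members. The order of some neighbours was not kept across libraries. mt-Co3 exceeded mt-Co1 in 3 of 12 libraries, mt-Co1 exceeded mt-Co2 in 7 of 12 and mt-Nd6 exceeded mt-Nd5 in 8 of 12, so these neighbours could not be ranked. mt-Atp6 was above mt-Co3 in 10 of 12 libraries, and mt-Co2 above mt-Cytb and mt-Nd1 above mt-Nd4 in 11 of 12. mt-Cytb was above mt-Nd1, mt-Nd4 above mt-Nd2 and mt-Nd2 above mt-Nd6 in all 12. Without mouse 5 the medians kept this order except that mt-Co2 (17279) came before mt-Co1 (17252).

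The top of this order depends on the copies. Summed with Gm29216 and a further copy on chromosome 2 (Gm13340, chr2:22588103-22589647, different from mt-Co1 at 37 of 1545 bases), mt-Co1 reached a median of 24153 and stood above mt-Atp6 with its copy (23198) in 11 of 12 libraries. With copies, mt-Atp6 was above mt-Co3 in 12 of 12 libraries, and mt-Co3 and mt-Co2 could not be ranked (6 of 12). From mt-Cytb down, the medians of mt-Nd4 (9918) and mt-Nd1 (9873) came to lie close together, and mt-Nd4 was the higher in 2 of 12 libraries.

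**Figure D3:**
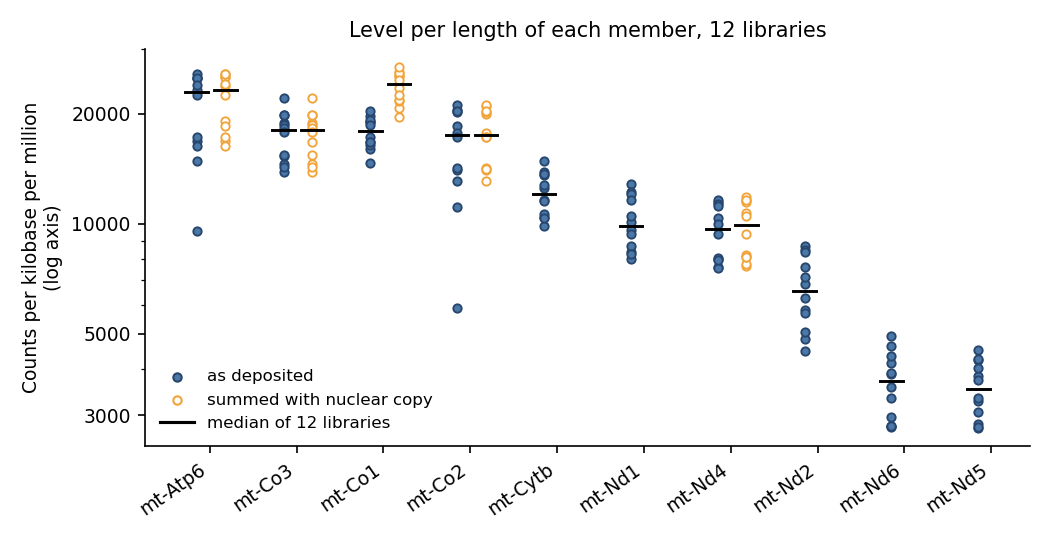
Level of each member in RPKM (y axis, logarithmic) in the 12 libraries (points), with the median as a bar. Filled points are counts as deposited and open points the sum with nuclear copies. Medians ran from 22909 for mt-Atp6 to 3534 for mt-Nd5, and the single low points of mt-Atp6 and mt-Co2 belong to mouse 9.

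The members rose and fell together from mouse to mouse. Over the 45 pairs of members, the Pearson correlation of log2 shares across the 12 libraries had a median of 0.833, with the lowest value for mt-Nd5 and mt-Co2 (0.573) and the highest for mt-Co2 and mt-Atp6 (0.984). With copies summed, the median was 0.936 and the lowest value 0.713 (mt-Nd5 and mt-Co3). mt-Nd6, whose gene lies on the other strand, followed mt-Nd1 at 0.984. Whether counting used strand is not given, so the counts of mt-Nd6 cannot be assigned to transcripts of its own strand alone. These correlations describe 12 libraries in which all members share one total. Members that move together in this way are not separate observations of a mouse. mt-Co3 was the member least like the others once copies were summed, with a median of 0.787 over its 9 pairs. Its counts relative to mt-Nd1 ran from 1.21 in mouse 1 to 1.79 in mouse 3. The CVs of the 10 members, from 9.77% to 28.6% as deposited, stood beside a median of 12.5% for nuclear genes with a mean count of at least 400. Without mouse 5, the CVs ran from 9.96% to 29.5%, and the median correlation over the 45 pairs was 0.824 as deposited and 0.932 with copies summed.

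Across all genes with a mean of at least 10 CPM (counts scaled to a common library total, 10347 genes that are no members), those whose log2 CPM most resembled the summed CPM of the members over the 12 libraries were mt-Te, the mitochondrial tRNA gene for glutamate (Pearson r = 0.931), the copy Gm29216 (r = 0.897), mt-Nd4l (r = 0.893), Kmt2c, which codes for a histone methyltransferase (r = 0.875), and A230103L15Rik (r = 0.868). The least alike were Pgs1 (r = -0.919), Slc39a11 (r = -0.908), Clptm1l (r = -0.881), Rhbdd2 (r = -0.875) and Dnpep (r = -0.868). Pgs1 codes for the enzyme that makes the precursor of cardiolipin, a lipid of the inner mitochondrial membrane, Slc39a11 for a zinc transporter and Dnpep for an aspartyl aminopeptidase. The median over all genes compared was -0.0794. These are the extremes of 10347 values over 12 libraries and are given as a description only. Without mouse 5, mt-Te (r = 0.929) and Pgs1 (r = -0.916) still stood at the ends, while Kmt2c ranked 10 from the highest and Dnpep 12 from the lowest.

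Other mitochondrially encoded genes were measured in the same libraries. mt-Nd4l, a complex I subunit whose gene ends within the start of mt-Nd4 (7 bases shared), ranged from 0.113% to 0.186% of a library, and its ratio to mt-Nd4 kept between 0.102 and 0.135. mt-Nd3 ranged from 0.0361% to 0.185%, lowest in mouse 11, where its copy had most of the pair, and with the copy summed from 0.0798% (mouse 7) to 0.206% (mouse 2). mt-Atp8, the other mitochondrially encoded subunit of complex V, ranged from 0.123% (mouse 11) to 0.346% (mouse 2). Its gene shares 43 bases with mt-Atp6 on the same strand (chrM:7927-7969). This is shorter than a read of 75 bases, and 0 of the 130 stretches of 75 bases in mt-Atp8 were found in another transcript. The end of mt-Atp8 is shown with the 43 shared bases in capitals, which begin with the start codon of mt-Atp6, to make clear where the 2 genes overlap.
mt-Atp8 at the overlap with mt-Atp6: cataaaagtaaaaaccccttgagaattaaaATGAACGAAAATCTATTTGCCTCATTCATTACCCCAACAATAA

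Summed with copies in the denominator, the ratio of mt-Atp8 to mt-Atp6 was 0.127 ± 0.0224 (SD, n = 3) in less anxious, 0.141 ± 0.0368 (SD, n = 4) in anxious and 0.176 ± 0.0248 (SD, n = 4) in more anxious mice. mt-Rnr1 and mt-Rnr2, the rRNAs of the mitochondrial ribosome, together took 0.734% to 1.45% of a library in a protocol that selects polyadenylated RNA. The members exceeded the rRNA genes by between 8.48 times (mouse 3) and 14.5 times (mouse 12) as deposited, and by between 9.25 times (mouse 3) and 16.33 times (mouse 9) with copies summed. The 22 tRNA genes came to between 0.0443% and 0.141%.

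In the edgeR fit across 26963 genes, in which PC1 of the expression data was a covariate, 0 of the 10 members were called at an adjusted p below 0.05 in the test of any difference between the 3 groups, in which 2 genes of all (0.00742%) were called. The smallest adjusted p of a member was 0.943. At an unadjusted p below 0.05, 0 of the 10 members passed, beside 6.36% of all genes, and DESeq2 called 0 of 10 in the same model. None of the 10 had shares without overlap between the less and the more anxious group, while 8.86% of all genes had.

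Between more and less anxious mice, 8 members had a log2 fold change above zero and 2 below, with a median of 0.15 beside 0.00 for all genes tested. mt-Nd2 had the largest estimate, 0.32 ± 0.22 (SE) at an adjusted p of 0.742. mt-Nd1 followed with 0.21 ± 0.17 (SE), mt-Nd6 with 0.21 ± 0.22 (SE), mt-Nd5 with 0.19 ± 0.20 (SE) and mt-Nd4 with 0.18 ± 0.19 (SE). mt-Cytb was at 0.13 ± 0.16 (SE), mt-Co1 at 0.09 ± 0.14 (SE) and mt-Co3 at 0.00 ± 0.15 (SE). mt-Co2 and mt-Atp6 had estimates of -0.04 ± 0.44 (SE) and -0.08 ± 0.35 (SE), with SEs well above those of the other members. Summed with the copies they were 0.23 ± 0.17 (SE) and 0.13 ± 0.17 (SE), so that all 10 members lay above zero, with none called. In this comparison 12 genes of all (0.0445%) were called, 0 of them members, and 0 members passed an unadjusted p below 0.05, beside 8.84% of all genes. DESeq2 also called 0 members, with 0 at an unadjusted p below 0.05. Without mouse 9, the median over the members was 0.33 and 1 member passed an unadjusted p below 0.05. Without mouse 2 the median was 0.06, without mouse 3 it was 0.07 and without mouse 10 it was 0.10.

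Anxious and less anxious mice differed by a median of 0.12 over the members (from -0.03 to 0.26), and more anxious and anxious mice by 0.04 (from -0.05 to 0.08). In both comparisons 0 members were called, by edgeR and by DESeq2, beside 0.00371% and 0.00% of all genes by edgeR, and the smallest adjusted p of a member was 0.989 and 0.999. In both, 0 members passed an unadjusted p below 0.05, beside 4.74% and 4.57% of all genes. These 2 comparisons share the anxious mice. Without the covariate the median of anxious against less anxious was 0.05, without mouse 1 it was -0.06, without mouse 7 it was 0.07 and without mouse 11 it was 0.27. That of more anxious against anxious ran from -0.10 without mouse 11 to 0.17 without mouse 9. With SEs of this size the groups are not shown to be alike.

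**Figure D4:**
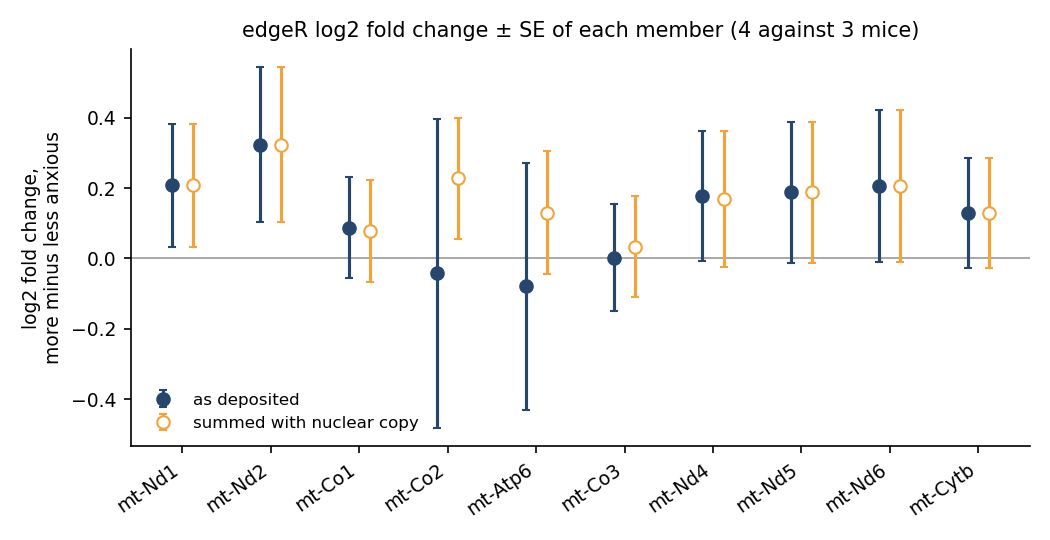
edgeR log2 fold change between more and less anxious mice for each member (y axis, points with SE bars), in the order of the mitochondrial genome with mt-Nd6 between mt-Nd5 and mt-Cytb. Filled points are counts as deposited and open points the sum with nuclear copies. mt-Co2 moved from -0.04 to 0.23 and mt-Atp6 from -0.08 to 0.13, and their SE bars became shorter.

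Of the nuclear genes that serve these transcripts, none was called by edgeR between the groups in any list. The 34 nuclear core subunits that join the members in complexes I, III, IV and V held 7 genes at an unadjusted p below 0.05 between more and less anxious mice, all of them above zero, where 5.21% of all genes passed in that direction. The median log2 fold change was 0.09 and 27 of the 34 were above zero. Cox8a, a small subunit of complex IV, had 178 ± 44.4 CPM (SD, n = 3) in less anxious, 223 ± 31.4 (SD, n = 4) in anxious and 296 ± 45.7 (SD, n = 4) in more anxious mice, with a log2 fold change of 0.72 ± 0.15 (SE) and an adjusted p of 0.120. By mouse it read 135, 223 and 176 CPM in mice 3, 7 and 12 and 272, 281, 364 and 268 CPM in mice 2, 6, 9 and 10. Its 2 groups did not overlap, unlike those of any member. By shares of the total, 6 of the 34 genes had no overlap, all higher in more anxious mice, beside 8.86% of all genes. Cox5b had 0.44 ± 0.11 (SE, adjusted p = 0.207) and Cox6a1 0.41 ± 0.13 (SE, adjusted p = 0.344).

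Among 78 nuclear genes for mitochondrial ribosomal proteins, which make the ribosome that translates the members, 14 passed an unadjusted p below 0.05. All 14 were above zero, a direction in which 5.21% of all genes passed, and the median was 0.10. The 3 with the smallest p in the test of any group difference were Mrpl34, which had 0.71 ± 0.15 (SE, adjusted p = 0.140) between more and less anxious mice, Mrpl17 with 0.52 ± 0.14 (SE, adjusted p = 0.244) and Mrps24 with 0.55 ± 0.15 (SE, adjusted p = 0.260). Of 42 assembly and translation factors of the members, 7 passed, all above zero, beside the same 5.21% of all genes. Among them were Coa6, needed for copper delivery to complex IV, at 0.42 ± 0.15 (SE), and Sco2, another copper chaperone, at 0.41 ± 0.16 (SE). Ndufaf1, an assembly factor of complex I, did not pass, at 0.06 ± 0.12 (SE, adjusted p = 0.935).

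The genes that make and process the members themselves showed no common direction. Of 38 genes for mitochondrial transcription, replication and RNA processing, 18 were above zero and 20 below (median -0.01). An unadjusted p below 0.05 was reached by 2 of them, a share no higher than the 8.84% of all genes that passed. Polrmt, the mitochondrial RNA polymerase, was at 0.35 ± 0.14 (SE, adjusted p = 0.465), Mterf3, a factor that binds mitochondrial DNA and lowers its transcription, at -0.33 ± 0.12 (SE, adjusted p = 0.435), and Rexo2, a nuclease for short RNAs, at 0.20 ± 0.10 (SE, adjusted p = 0.605). Of 12 regulators of mitochondrial biogenesis, 0 passed (median -0.01), with Esrra at 0.18 ± 0.13 (SE), Yy1 at -0.05 ± 0.12 (SE) and Gabpb1 at -0.04 ± 0.13 (SE). Among 15 tested genes of the mitochondrial stress response, Atf5, a transcription factor of that response, was at 0.44 ± 0.15 (SE, adjusted p = 0.409), Phgdh, an enzyme of serine synthesis, at -0.25 ± 0.11 (SE, adjusted p = 0.518) and Atf4 at 0.18 ± 0.09 (SE, adjusted p = 0.597).

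Of the mitochondrial tRNA genes, 1 of 22 passed an unadjusted p below 0.05 in the same comparison, a share no higher than the 8.84% of all genes that passed. This was mt-Th, the tRNA gene for histidine, at -1.05 ± 0.29 (SE, adjusted p = 0.289). Its level was 16.9, 5.92 and 7.50 CPM in less anxious mice 3, 7 and 12 and 4.52, 4.12, 4.26 and 4.62 CPM in more anxious mice 2, 6, 9 and 10. mt-Tf and mt-Tl2 were at 0.83 ± 0.66 (SE) and -0.83 ± 0.39 (SE). mt-Rnr1 was at -0.01 ± 0.27 (SE) and mt-Rnr2 at -0.12 ± 0.26 (SE). mt-Atp8 was at 0.54 ± 0.27 (SE, adjusted p = 0.626), mt-Nd4l at 0.27 ± 0.18 (SE) and mt-Nd3, as deposited and not fitted with its copy, at -0.21 ± 0.57 (SE). Among the copies, Gm28437, Gm28661 and Gm10925 passed an unadjusted p below 0.05 above zero and none was called by edgeR. No fold is given for them, since their counts were highest in mouse 9 and differed widely between the libraries of a group, down to at most 1 count in at least 1 library of each.

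Marker genes of cell types were compared between the same groups, and none was called by edgeR. Calls of DESeq2 on these lists are not given here. The study reported Kcnj13 and Prl, markers of choroid plexus and pituitary here, as most downregulated in its high anxiety mice. All 4 astrocyte markers had log2 fold changes below zero between more and less anxious mice (median -0.22, 1 at an unadjusted p below 0.05), and their summed level was 881 to 1083 CPM in less anxious and 654 to 826 CPM in more anxious mice. Choroid plexus markers summed to 10.7 to 15.97 CPM in less anxious and 4.71 to 10.9 CPM in more anxious mice, with 2 of 4 markers passing below zero (beside 3.62% of all genes), Ttr at -0.41 ± 0.58 (SE) and Folr1 above zero at 0.81 ± 0.72 (SE). All 5 neuronal markers were above zero (median 0.30, 3 passing, beside 5.21% of all genes), with sums of 3745 to 4052 CPM and 3792 to 4943 CPM. Markers of microglia (4 genes, 1 passing), endothelium (3 genes, 2 passing), oligodendrocytes (4 genes, 1 passing), their precursors (2 genes, 1 passing) and inhibitory neurons (3 genes, 0 passing) were below zero throughout. Of the markers of excitatory neurons, Slc17a7 was above zero and passed, at 0.44 ± 0.17 (SE, adjusted p = 0.476), Camk2a was at 0.04 ± 0.14 (SE) and Slc17a6 at -0.09 ± 0.27 (SE). Of the transcripts kept in the nucleus, Malat1 (log2 fold change 0.42) and Meg3 (0.20) were above zero and Neat1 (-0.24) was below. Their sum, most of it Meg3, was 4782 to 5805 CPM in less anxious and 5227 to 6643 CPM in more anxious mice. Pituitary markers reached at most 3.67 CPM in both of these groups and 55.3 CPM in 1 anxious mouse. The part of cell composition in the values of the members was not tested.

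The labels also give 7 behavior measures per mouse, which did not come from the RNA. Each was tested as a number in units of its SD in the 11 mice with a group (10 for the ratio at 3 min). edgeR called 0 members in all 7, where it called 0.00742% of all genes for time in the light, 0.00% for distance in the light, open-arm time and total entries, and 0.0150%, 0.0111% and 0.0223% for the social ratio at 3, 5 and 10 min. With open-arm time, the percentage of time that a mouse spent on the unprotected arms of the EPM, all 10 members had a negative slope (median -0.16 on the log2 scale per SD, beside -0.00 for all genes). Here 6 of 10 passed an unadjusted p below 0.05, beside 5.84% of all genes and 3.12% in that direction, and the smallest adjusted p was 0.637. DESeq2 called 0 of 10 as well, with a smallest adjusted p of 0.208.

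By mouse, the members with their copies took 14.8% of the library in mouse 2 (2.33% open-arm time), 15.0% in mouse 10 (3.25%) and 12.0% in mouse 9 (4.30%). They took 15.2% in mouse 1 (6.73%), 11.04% in mouse 8 (14.7%), 13.5% in mouse 4 (16.8%) and 13.4% in mouse 3 (17.5%). They took 10.8% in mouse 11 (20.1%), 10.6% in mouse 7 (24.5%), 13.7% in mouse 12 (24.6%) and 10.5% in mouse 6 (29.2%). The 3 highest shares were found at times of at most 6.73%, and the 4 lowest at times between 14.7% and 29.2%. As deposited, the 3 highest shares were those of the same mice (1, 10 and 2). What is said of the 4 lowest holds for the share with copies only. Mouse 9 as deposited had 9.56%, the second lowest share of the 11 mice, at a short time of 4.30%. Mouse 6, labelled more anxious, had the longest time on the open arms of the 11 mice. Mouse 5, outside the fit, had 14.7% at 7.34% open-arm time.

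Of the single members, mt-Nd2 had the steepest slope, -0.25 ± 0.07 (SE, adjusted p = 0.637), followed by mt-Nd6 with -0.22 ± 0.07 (SE, adjusted p = 0.660), mt-Nd5 with -0.19 ± 0.07 (SE, adjusted p = 0.709) and mt-Nd1 with -0.19 ± 0.06 (SE, adjusted p = 0.669). mt-Nd4 had -0.17 ± 0.06 (SE) and mt-Cytb -0.15 ± 0.05 (SE). The complex IV and V members had -0.10 ± 0.05 (SE) for mt-Co1, -0.12 ± 0.07 (SE) for mt-Co3, -0.12 ± 0.15 (SE) for mt-Co2 and -0.10 ± 0.12 (SE) for mt-Atp6, and none of these 4 passed. With copies summed 8 of 10 passed, and without mouse 9 all 10 did, with a median of -0.21. The members share most of their variation between mice, so these counts are not 10 independent results. Over all genes, 5.84% passed and 3.12% passed below zero. Of the nuclear core subunits 25 of 34 were below zero as well (4 passing below and 1 above). Of the mitochondrial ribosomal proteins 60 of 78 were below zero (5 passing, near the share of all genes). Choroid plexus markers moved the other way, with 3 of 4 above zero at an unadjusted p below 0.05, and oligodendrocyte precursor markers with 1 of 2. Their part in the slopes was not tested.

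**Figure D5:**
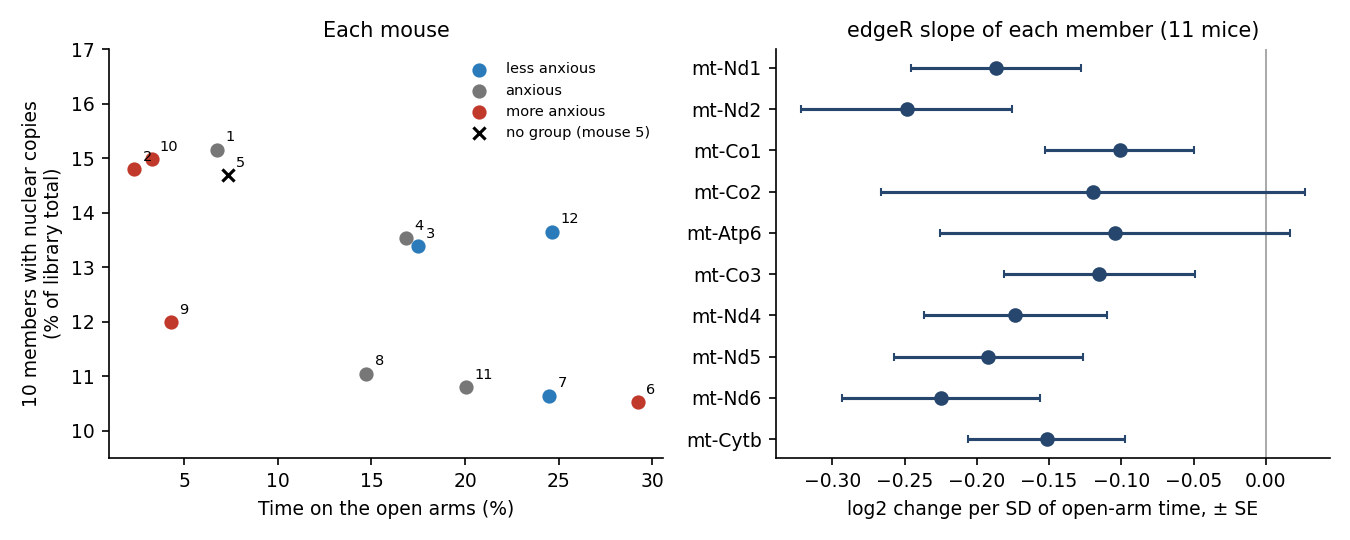
Left, the share of the 10 members with their nuclear copies (y axis, percent of the library total, not from 0) against time on the open arms (x axis, percent) for each mouse, numbered and colored by group. Right, the edgeR slope of each member as log2 change per SD of open-arm time with SE bars in 11 mice. All 10 slopes lay below zero, from -0.25 for mt-Nd2 to -0.10 for mt-Co1.

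With total entries into the arms of the EPM, all 10 slopes were negative too (median -0.12), and 2 passed an unadjusted p below 0.05, beside 6.97% of all genes and 3.43% in that direction. mt-Nd6 had -0.17 ± 0.07 (SE, adjusted p = 0.7003) and mt-Nd1 -0.14 ± 0.06 (SE, adjusted p = 0.7003). Without mouse 1, 2, 4, 6, 7 or 8 none passed, 1 did without mouse 3, 3 without mouse 9, and 6 without mouse 10 or mouse 12. With the other measures no member passed an unadjusted p below 0.05, beside 3.55% of all genes for time in the light, 5.80% for distance in the light, and 7.65%, 6.56% and 8.05% for the social ratio at 3, 5 and 10 min. The medians were -0.03 for time in the light, -0.02 for distance in the light, and 0.04, -0.04 and -0.02 for the ratio of time in the box to time in the zone at 3, 5 and 10 min of the social test. Some changed sign. Without mouse 2 and without mouse 6 they were 0.01 and 0.05 for time in the light, and 0.04 and 0.02 for distance. At 3 min the median was -0.03 with PC1 as covariate and -0.02 without mouse 7. At 10 min it was 0.02 without mouse 2 and -0.09 with PC1 as covariate. With counts as deposited, no covariate and no mouse left out, all 10 slopes were thus negative in both measures of the EPM. In these fits they were of mixed sign in each of the other measures. This contrast depended on the settings. With copies summed, all 10 slopes also lay below zero for time in the light, and 0 did for the ratio at 3 min. With PC1 as covariate, all 10 lay below zero at 5 min (median -0.0953). For total entries, 9 lay below zero without mouse 2.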

How the data were processed

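Amygdala mRNA of 12 mice was sequenced as stranded, poly(A)-selected libraries with single-end reads of 75 bases. The authors used cutadapt for trimming, STAR alignments to mm10 for quality control, Salmon for transcript quantification and tximport for gene totals. The submitters' processing notes name Salmon, CASAVA, DESeq2 and mm10. The authors deposited these estimated counts (expected counts) without normalization, as whole numbers. The annotation release, the tool versions and the use of strand in counting are not given in the sources used here. Salmon divides reads that fit several transcripts, which is where mitochondrial genes and their nuclear copies meet.

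Gene names, positions and transcript sequences came from GENCODE M21, which held 47310 of 47729 genes (99.12%). Shares were counts of a gene as percent of all counts of the library. Tests used edgeR 4.0.16 (R 4.3.3): the quasi-likelihood F-test (robust, TMM factors) with Benjamini-Hochberg adjustment over the 26963 genes whose reads came to 10 or more in the 11 mice with a group. For the social ratio at 3 min, fitted on 10 mice, 26651 genes were tested. The group fit had the PC1 score (DESeq2 variance-stabilizing transform) as covariate, as in the study's model, and the fits of 7 behavior measures had none. Calls were made at an adjusted p under 0.05. DESeq2 1.42.0 was an alternative. CPM used TMM factors, and log2 CPM a prior count of 2. On simulated counts with 200 genes changed by 2-fold, the group test recovered 157 with 12 false calls, and the test of more against less anxious mice 148 with 15. These changes were larger than the estimate of any member between the groups, and the simulated counts held no PC1 effect. The recovery does not show how well smaller changes would be found. With no gene changed, the group test still called 8 genes, more than the 2 called in the real data, and the test of more against less anxious mice 1. Tables and figures used Python 3.11.15, pandas 2.3.3, numpy 2.4.6 and matplotlib 3.10.9.

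The members and the gene lists were chosen with earlier results of these data known. Named were all members and other mitochondrially encoded protein and rRNA genes, from each list of genes related to mitochondria every gene called and the 3 with the smallest p in the group test (cell type markers are given mainly as sums and counts), and the 5 genes most and least like the members' sum. Of the 13 genes listed as nuclear copies, Gm29155 and Gm29156 are not copies by their annotation, and Gm10222 had no count. Gm20594 is annotated as a protein-coding gene and not as a pseudogene. Mouse 5 entered no group comparison. Alternatives covered scaling, filter, covariate, tool, summed copies and each mouse left out.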

Additional observations from a re-analysis of the deposited data

How the results depend on the processing

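No alternative changed the number of members called. It was 0 of 10 in the test of any group difference, in each of the 3 contrasts between groups and in the 7 behavior measures, under each scaling, filter, covariate, tool and coding tried and without each mouse in turn. The lowest adjusted p of a member was 0.615 between more and less anxious mice (0.635 with a mouse left out) and 0.208 in the behavior measures (DESeq2). The difference of the members' share between more and less anxious mice stayed between 0.15 and 0.51 percentage points under 4 other ways of taking the share and ran from -0.69 to 0.91 with a mouse left out, within the spread between mice.

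Directions of single members depended on single mice in the comparisons with small estimates. Between anxious and less anxious mice 7 members lay above zero and 2 without mouse 1, and the median of 0.12 was 0.05 without the covariate. Between more anxious and anxious mice 8 lay above zero and 0 without mouse 11. With time in the light 7 lay below zero, 10 with copies summed or without mouse 9, 4 without mouse 2 and 0 without mouse 6. With distance in the light 7 lay below zero, and 0 without mouse 2 or mouse 6. Between more and less anxious mice mt-Co3 went from 0.00 to -0.0248 with totals only and to -0.0754 without the covariate, and mt-Co2 and mt-Atp6 to 0.2273 and 0.1295 with copies summed. With a mouse left out, mt-Co3 ran from -0.0668 to 0.1575, mt-Co2 from -0.31 to 0.3603 and mt-Atp6 from -0.3212 to 0.2702. The slope of mt-Atp6 on distance in the light was -0.0103 with copies and from -0.0267 to 0.2106 with a mouse left out, that of mt-Nd5 on time in the light from -0.1155 to 0.0339. mt-Co3 on the social ratio was -0.0112 at 5 min with PC1 as covariate, and with a mouse left out ran from -0.0475 to 0.0934 at 5 min and from -0.0323 to 0.1107 at 10 min. The cause was not tested.

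Counts over all genes depended on the settings: 2 genes in the group test became 187 with DESeq2, 9 with every gene that had a read, 1 without robust estimates and 0 with filterByExpr or without the covariate. Between more and less anxious mice 12 became 304 with DESeq2, 25 with every gene that had a read, 3 without the covariate and 2 with totals only, filterByExpr or no robust estimates. Between anxious and less anxious mice 1 became 11 with DESeq2 and 0 without the covariate, and between more anxious and anxious mice 0 became 48 with DESeq2. With a mouse left out these counts ran from 0 to 5, 0 to 17, 0 to 2 and 0 to 2. Each member had at least 46096 counts in every library; the part of depth in the calls over all genes was not tested. No paired analysis was possible because each mouse belongs to 1 group and replicate numbers only name mice.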
